A study of Mus musculus with 8 samples.

Results

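The epithelial sodium channel and the aldosterone response were followed through 7 genes in intestinal epithelial cells (IECs) with and without the RNA helicase DDX5. The genes were taken by symbol from the list Scnn1a, Scnn1b, Scnn1g, Nr3c2, Hsd11b2, Sgk1 and Atp1b1, and all 7 were found among the 40178 genes listed in the tables of both tissues together. IECs came from the colon and the ileum of 8-week-old mice, and RNAseq gave 8 libraries in 4 groups of 2. The control mice, WTIEC, were Ddx5+/+ Villin1Cre+ and the knockout mice, DDX5ΔIEC, were Ddx5 fl/fl Villin1Cre+, so every animal carried the Cre recombinase. Villin1 drives Cre in the epithelium of the small and large intestine, and other cells in the fraction keep an intact Ddx5. The 4 animals were 2 pairs of littermates, and each gave 1 colon and 1 ileum library. The animals were healthy, and hormone levels and diet were not analysed here.

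Aldosterone is the steroid that makes epithelia of the distal colon and the kidney retain sodium. It binds the mineralocorticoid receptor, and the receptor raises transcription of kinases, channel subunits and pump subunits, so that sodium enters through the epithelial sodium channel (ENaC) on the luminal side and leaves through the Na,K-ATPase on the blood side. ENaC is built from an alpha, a beta and a gamma subunit, and in the rodent colon the beta and gamma genes are known as the ones that respond most to the hormone.

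Scnn1a (ENSMUSG00000030340.16) encodes the alpha subunit and lies on the plus strand of mm10 at chr6:125320659-125344943. Scnn1g (ENSMUSG00000000216.8), the gamma subunit, at chr7:121734479-121768475, and Scnn1b (ENSMUSG00000030873.9), the beta subunit, at chr7:121865038-121918514, lie on the plus strand with 96562 bases and 1 annotated gene between them. Nr3c2 (ENSMUSG00000031618.13), the mineralocorticoid receptor, is at chr8:76899442-77245012 on the plus strand. Hsd11b2 (ENSMUSG00000031891.6) encodes the enzyme that inactivates glucocorticoids before they reach that receptor and is at chr8:105518755-105523988 on the plus strand. Sgk1 (ENSMUSG00000019970.15), a kinase that the receptor induces and that protects ENaC from ubiquitination, is at chr10:21882184-21999903 on the plus strand. Atp1b1 (ENSMUSG00000026576.12), the beta subunit of the sodium pump, is at chr1:164437109-164458355 on the minus strand.

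Some members overlap other genes. Atp1b1 shares 575 of its 3081 exon bases with Nme7 on the other strand, and Nr3c2 shares 247 of 6474 with Gm10649. Cog7 overlaps Scnn1b on the other strand with 0 shared exon bases. The kit kept strand, but whether the counting used it is not given in the sources used here. Counts of Atp1b1 and Nr3c2 may therefore be inexact over the shared bases.

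Promoter windows of 300 bases, 250 before and 50 after an annotated start, were present in the RefSeq table of GRCm38.p6 for 5 of the 7 members, 10 windows in all. They were searched for AGAACA, any 3 bases, TGTTCT, the inverted repeat that both the mineralocorticoid and the glucocorticoid receptor are known to bind. This element reads the same on both strands. It was present in 3 of 32851 windows, 0.00913%, and 1 of the 3 belonged to Sgk1. Sgk1 has 6 windows in the table, and the element is in the window of the start at chr10:21993890, from 189 to 175 bases before that start. It is shown first, with the element in capitals. The upstream ends of Scnn1g and Scnn1b, the members with the largest differences in the colon, follow, each as the 120 bases before its start, with the GC box GGGCGG or its reverse complement CCGCCC in capitals.
Sgk1, GRCm38.p6 chr10:21993661-21993755, plus strand: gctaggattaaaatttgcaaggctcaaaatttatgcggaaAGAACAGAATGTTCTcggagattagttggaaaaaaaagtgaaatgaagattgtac
Scnn1g, GRCm38.p6 chr7:121734359-121734478, plus strand: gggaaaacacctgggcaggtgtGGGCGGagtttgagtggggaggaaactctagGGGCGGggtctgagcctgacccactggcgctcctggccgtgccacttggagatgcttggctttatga
Scnn1b, GRCm38.p6 chr7:121864918-121865037, plus strand: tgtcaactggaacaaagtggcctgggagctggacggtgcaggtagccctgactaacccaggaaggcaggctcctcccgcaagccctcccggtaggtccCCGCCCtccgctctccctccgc
The half-site AGAACA or TGTTCT, which the full element holds on both sides, was in 19% of all windows and in none of the windows of Scnn1g, Scnn1b, Nr3c2 and Atp1b1. The GC box, searched on both strands, was in 35.7% of all windows, 2 times in the window of Scnn1g, 1 time in that of Scnn1b, 3 times in that of Nr3c2, 2 times in that of Atp1b1 and up to 4 times in a window of Sgk1, so it was not particular to the channel subunits. These are matches of letters within these windows and say nothing of sites farther away or of binding.

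The libraries held between 11571061 and 22984283 counts. Ddx5, the targeted gene, was at 771 and 706 CPM (counts scaled to library size and for composition by TMM) in WTIEC colon against 367 and 355 in DDX5ΔIEC colon, and at 700 and 700 in WTIEC ileum against 340 and 326 in DDX5ΔIEC ileum, so every label fitted its library. The tables count a gene over all its exons, so transcript left from exons that Cre does not remove is included. Epithelial markers were high in every library, from 8371 to 15300.5 CPM summed over 6 genes, and stromal and muscle markers summed to 3.54 to 15.9 CPM over 7 genes. In DDX5ΔIEC ileum library 2, 19.5% of counts fell on 3 repeat-like genes, against at most 4.05% in the others. DDX5ΔIEC colon library 1 stood apart in the genes described here, and colon results are given without it where it decides them.

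Levels are compared between genes as CPM per kilobase of exon (CPM/kb). In the WTIEC colon Atp1b1 was the most abundant member, at 244 ± 2.63 CPM/kb (SD, n = 2 for all group values). Hsd11b2 followed at 41.8 ± 1.06, Nr3c2 at 35.5 ± 2.06 and Sgk1 at 29.2 ± 8.45 CPM/kb. Nr3c2 and Sgk1 overlapped between mice, and all other neighbours in this order were apart in both animals. The channel subunits were the scarcest members.

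Among the subunits Scnn1a was at 12.0 ± 0.166, Scnn1b at 2.41 ± 0.287 and Scnn1g at 0.601 ± 0.267 CPM/kb in the WTIEC colon. Within a library, where scaling cancels, Scnn1b was 0.221 and 0.183 of the Scnn1a level per kilobase in the 2 WTIEC colon libraries. Scnn1g was 0.0668 and 0.0341 of the Scnn1a level in the same libraries. The pore-forming alpha transcript was therefore in excess of beta, and beta in excess of gamma, in both control colons.

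In the WTIEC ileum the order changed. Atp1b1 was again first at 375 ± 10.04 CPM/kb, ahead of Nr3c2 at 16.9 ± 0.667 and Sgk1 at 15.8 ± 6.56, which overlapped. Scnn1a at 5.57 ± 0.153 CPM/kb stood above Hsd11b2 at 4.42 ± 0.384. Scnn1b and Scnn1g were at or near the floor of detection, with 2 and 2 counts of Scnn1b and 0 and 1 counts of Scnn1g.

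**Figure D1:**
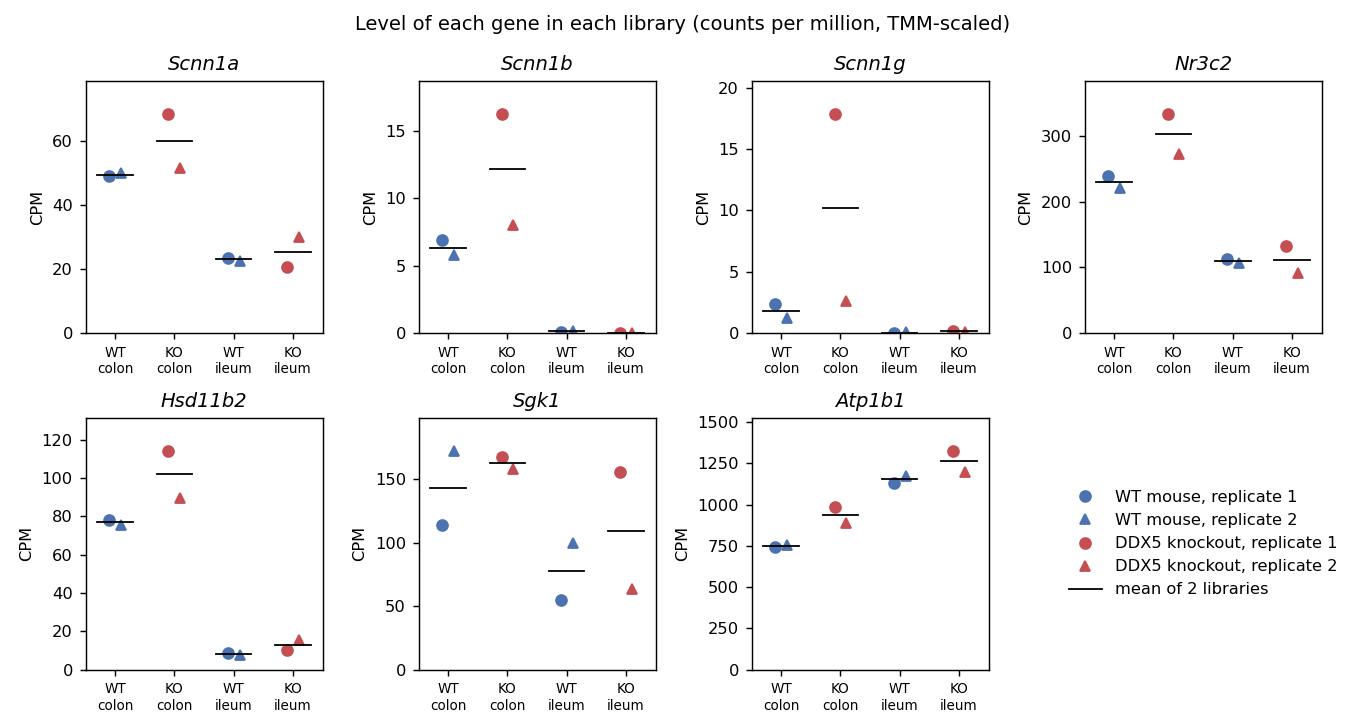
Level of each member in each of the 8 libraries, in CPM on a linear axis that starts at 0, with blue for WTIEC, red for DDX5ΔIEC, circles for replicate 1, triangles for replicate 2 and a bar for the mean of 2. Scnn1b and Scnn1g are near 0 in all 4 ileum libraries and highest in DDX5ΔIEC colon library 1, at 16.3 and 17.9 CPM, while Atp1b1 is higher in the ileum than in the colon.

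The ileum was compared with the colon within each genotype, with edgeR's quasi-likelihood test over all 8 libraries and a call at a Benjamini-Hochberg adjusted p below 0.05. In WTIEC mice 5 of the 7 members were lower in the ileum and 1, Atp1b1, was higher. Over all genes 16.8% were called lower and 17.4% higher, and the median log2 difference was -1.10 over the members and -0.018 over all 16178 genes tested. In DDX5ΔIEC mice 5 members were lower and none passed the test for higher, against 17.3% and 18% of all genes. The median was -1.44 over the members and -0.037 over all genes in the knockout. The 5 lower members of each genotype include Scnn1b and Scnn1g, which passed the filter only through the colon. For them only a lower call was open, so the direction rests on Scnn1a, Nr3c2 and Hsd11b2.

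Hsd11b2 showed the largest tissue difference among members with counts in every library. It had 78.2 and 75.4 CPM in the WTIEC colon and 8.63 and 7.63 CPM in the WTIEC ileum, and the tissues did not overlap. The edgeR log2 difference was -3.23 ± 0.208 (SE), adjusted p = 1.5e-05, and in DDX5ΔIEC mice it was -3.00 ± 0.208, adjusted p = 2.4e-05. The enzyme that shields the receptor from glucocorticoids was thus mostly a colon transcript in both genotypes.

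Nr3c2 was at 240 and 221 CPM in the WTIEC colon and at 112 and 106 CPM in the WTIEC ileum. Its log2 difference was -1.08 ± 0.182, edgeR adjusted p = 0.0024, and -1.44 ± 0.185 in DDX5ΔIEC mice, adjusted p = 5.6e-04. The receptor fell much less from colon to ileum than Hsd11b2, and the fitted 95% intervals of the WTIEC differences, -1.49 to -0.66 and -3.71 to -2.76, did not meet.

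Scnn1a was at 48.9 and 49.9 CPM in the WTIEC colon against 23.4 and 22.5 CPM in the WTIEC ileum, a log2 difference of -1.10 ± 0.190, edgeR adjusted p = 0.0026. In DDX5ΔIEC mice it was -1.24 ± 0.194, adjusted p = 0.0016. For Scnn1b the 2 WTIEC colon libraries together held 263 counts and the 2 ileum libraries 4, a level 56.8-fold lower in the ileum with an exact 95% interval of 21.9 to 210 that covers counting error only. In DDX5ΔIEC mice there were 471 counts in the colon and 0 in the ileum, at least 78.4-fold lower against a floor of 3 counts over the group, with 63.5 as the lower limit of the exact interval. Of the 471 counts, 295 were from DDX5ΔIEC colon library 1, and without that library the edgeR adjusted p was 9.0e-05. The alpha subunit thus remained measurable in the ileum where beta was all but missing.

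Scnn1g had 73 counts in the WTIEC colon and 1 in the WTIEC ileum, a ratio of 63.1 with a counting interval of 11.0 to 2525. In DDX5ΔIEC mice 381 counts stood against 3, a ratio of 63.4 with an interval of 21.5 to 309. Of the 381 counts, 324 were from DDX5ΔIEC colon library 1, and leaving that library out moved the fitted log2 difference from -6.02 to -4.06, edgeR adjusted p = 0.0063. The edgeR adjusted p for Scnn1g was 0.036 in WTIEC and 0.0073 in DDX5ΔIEC mice, and for Scnn1b 3.3e-04 and 1.8e-04. Both genes passed the filter of this fit only through the colon libraries, so a call could fall only on lower in the ileum. The WTIEC call of Scnn1g was lost without either WTIEC colon library, either WTIEC ileum library or DDX5ΔIEC ileum library 2, with adjusted p from 0.0504 to 0.198.

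Atp1b1 ran the other way, with 746 and 757 CPM in the WTIEC colon and 1132 and 1176 CPM in the WTIEC ileum. Its log2 difference was 0.62 ± 0.147, edgeR adjusted p = 0.012, and in DDX5ΔIEC mice 0.43 ± 0.147, adjusted p = 0.051. With the mouse as a block, since both tissues came from the same animals, the knockout value was 0.43 and adjusted p = 0.0433. The call in WTIEC mice was lost when any 1 of the 4 WTIEC libraries was left out, with adjusted p from 0.0553 to 0.0996.

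Sgk1 was at 114 and 173 CPM in the WTIEC colon and at 54.6 and 100 CPM in the WTIEC ileum. In both tissues WTIEC mouse 2 was the higher animal. The log2 difference was -0.89 ± 0.413, edgeR adjusted p = 0.132, and with the mouse as a block -0.92, adjusted p = 0.0273. It passed in 4 of 13 alternatives, this one included. In DDX5ΔIEC mice the colon was at 167 and 158 CPM and the ileum at 155 and 63.8 CPM, a log2 difference of -0.57 ± 0.411, adjusted p = 0.319. It ran from -1.36 without DDX5ΔIEC ileum library 1, edgeR adjusted p = 0.031, to -0.044 without DDX5ΔIEC ileum library 2, and it passed in 2 of 13 alternatives.

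DDX5ΔIEC and WTIEC colons were then compared in a fit of the 4 colon libraries with the replicate number as a block. Calls used the criterion of the study, a log2 fold change whose size was 0.5 or more together with an unadjusted p below 0.05, with the Benjamini-Hochberg adjusted p given beside it. Scnn1g and Scnn1b passed it and were higher in the knockout, and the other 5 members did not pass. By this criterion 6.64% of 12557 protein-coding genes were called in either direction and 2.64% were called higher. No member passed at an adjusted p below 0.05 with edgeR's quasi-likelihood test, nor did any other gene (0% of 15362, with 1836 at an unadjusted p below 0.05). DESeq2 with the block called 117 genes, Scnn1g among them. An exact permutation test of 2 libraries against 2 cannot give a two-sided p below 0.333, so single values were not tested that way.

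All 7 members had a positive log2 fold change in the colon, with a median of 0.38 over the members and -0.00041 over all genes tested. For 6 of them, all but Sgk1, both DDX5ΔIEC libraries were above both WTIEC libraries, which held for 23.8% of protein-coding genes. The highest library of these 6 had to be a knockout library, and in all 6 it was DDX5ΔIEC library 1. The share of all genes for which this held was not analysed here.

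Scnn1g had 45 and 28 counts in the WTIEC colon and 324 and 57 counts in the DDX5ΔIEC colon. Scaled, these were 2.36 and 1.23 CPM against 17.9 and 2.598 CPM. The groups did not overlap, but the second knockout library was only just above the first control. The fitted log2 fold change was 2.12 ± 0.477, unadjusted p = 0.0070 and edgeR adjusted p = 0.286, over alternatives from 0.0087 to 1.

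Leaving out DDX5ΔIEC colon library 1 brought the Scnn1g fold change to 0.54 with an unadjusted edgeR p of 0.300, and the call was lost. It was also lost without WTIEC colon library 2, at 2.10 with an edgeR adjusted p of 1 (unadjusted p = 0.0721). With library 2 of the knockout left out instead it was 3.33, edgeR adjusted p = 0.0087. In each of these fits the lone library of a group was assumed to vary like the others. They held all groups and no block, and that model with all 8 libraries gave 2.51 for Scnn1g and 0.93 for Scnn1b.

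Scnn1b had 131 and 132 counts in the WTIEC colon and 295 and 176 in the DDX5ΔIEC colon, that is 6.88 and 5.81 CPM against 16.3 and 8.02 CPM. Both knockout libraries were above both controls, the first clearly and the second by less. Scnn1b had a log2 fold change of 0.85 ± 0.244, unadjusted p = 0.018 and edgeR adjusted p = 0.337, over alternatives from 0.0491 to 1. It dropped to 0.34 without DDX5ΔIEC colon library 1, edgeR adjusted p = 0.953 (unadjusted p = 0.229). The call was lost too without WTIEC colon library 1 (1.05, unadjusted p = 0.0533) and without WTIEC colon library 2 (0.81, unadjusted p = 0.111), with an edgeR adjusted p of 1 in each.

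Scnn1a was at 48.9 and 49.9 CPM in the WTIEC colon and at 68.3 and 51.4 CPM in the DDX5ΔIEC colon. The second knockout library was just above the controls and the first well above them. Its log2 fold change was 0.25 ± 0.138, unadjusted p = 0.129 and edgeR adjusted p = 0.528, with a 95% interval of -0.11 to 0.61, and it was 0.055 without DDX5ΔIEC colon library 1.

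The balance between subunits differed in the same library. In DDX5ΔIEC colon library 1 the Scnn1g level per kilobase was 0.967 of that of Scnn1b and 0.362 of that of Scnn1a. In the other 3 colon libraries Scnn1g was 0.187 to 0.302 of Scnn1b and 0.0341 to 0.0699 of Scnn1a, with DDX5ΔIEC colon library 2 at 0.285 and 0.0699. The ratios of library 2 of the knockout lay within or next to the control values, and those of library 1 lay far outside them.

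**Figure D2:**
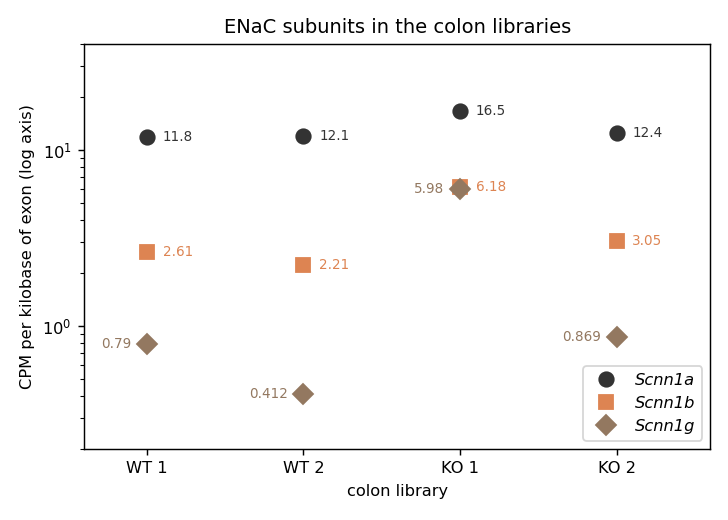
CPM per kilobase of exon (log axis) of Scnn1a, Scnn1b and Scnn1g in the 4 colon libraries, 1 point per library. Scnn1b at 6.18 and Scnn1g at 5.98 CPM/kb coincide in DDX5ΔIEC library 1 and are apart in the other 3 libraries.

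Nr3c2 was at 240 and 221 CPM in the WTIEC colon against 334 and 272 CPM in the DDX5ΔIEC colon. The groups were apart, with both knockout libraries higher. Its log2 fold change of 0.38 ± 0.092 had an unadjusted p of 0.0094 and an edgeR adjusted p of 0.307, and it was below the size that the criterion asks for.

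Hsd11b2 was at 78.2 and 75.4 CPM in the WTIEC colon against 114 and 89.6 CPM in the DDX5ΔIEC colon. Again both knockout libraries were higher, library 1 more so. The log2 fold change was 0.39 ± 0.109, unadjusted p = 0.017 and edgeR adjusted p = 0.331, also under the size of the criterion. Without DDX5ΔIEC colon library 1 the fold changes were 0.24 for Nr3c2 and 0.22 for Hsd11b2. Without DDX5ΔIEC colon library 2 they were 0.54 and 0.57, above the size of the criterion.

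Sgk1 was at 114 and 173 CPM in the WTIEC colon and at 167 and 158 CPM in the DDX5ΔIEC colon. The knockout libraries lay between the controls. Its log2 fold change was 0.20 ± 0.175, edgeR adjusted p = 0.679, with a 95% interval of -0.25 to 0.65, and it turned to -0.09 without WTIEC colon library 1.

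Atp1b1 was at 746 and 757 CPM in the WTIEC colon and at 987 and 887 CPM in the DDX5ΔIEC colon. The groups did not overlap. Its log2 fold change of 0.30 ± 0.099 had an unadjusted p of 0.029 and an edgeR adjusted p of 0.361, and it stayed under 0.5 with every alternative, from 0.24 to 0.39. Nme7, whose exons it shares in part, had a log2 fold change of -0.04 ± 0.161 in the colon.

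**Figure D3:**
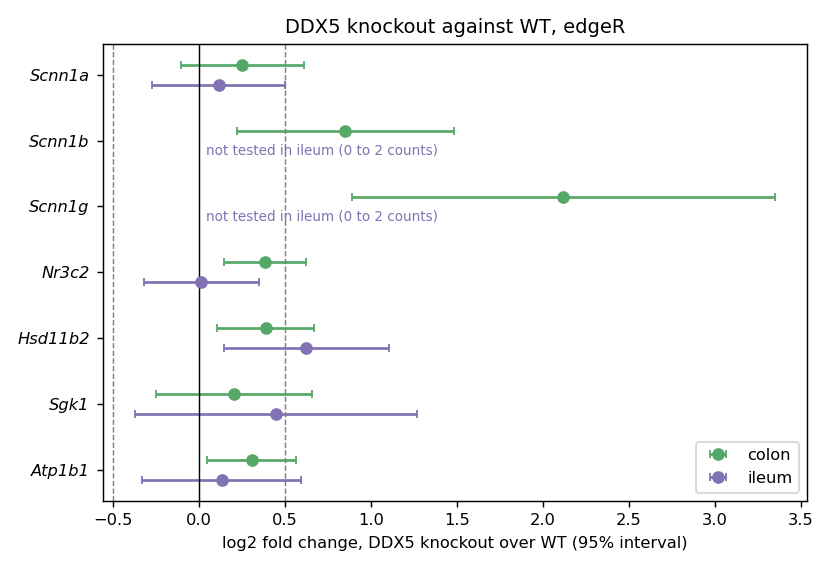
Log2 fold change of DDX5ΔIEC over WTIEC for each member in the colon (green) and the ileum (purple), with 95% intervals from edgeR and dashed lines at the size the criterion asks for. In the colon all 7 points are positive and only Scnn1b at 0.85 and Scnn1g at 2.12 lie beyond 0.5, and in the ileum only Hsd11b2 at 0.62 does.

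Markers of colon position and of other cell types are given beside these values, in a tissue where the criterion called 6.64% of protein-coding genes. Genes of distal colon position, 6 Hox genes of a list of 7 (Prac1 was not analysed here), summed to 266 and 223 CPM in the WTIEC colon and to 434 and 240 CPM in the DDX5ΔIEC colon, and to under 1 CPM in each ileum library. The highest sum was in DDX5ΔIEC colon library 1, the same library as for Scnn1b and Scnn1g. Hoxd13 was at 68.8 CPM there against 18.9, 19.6 and 21.7 CPM in the others. None of the 6 passed the criterion over all 4 libraries, and the sum of DDX5ΔIEC colon library 2 lay between those of the controls. The part of these Hox genes in the higher levels of the members was not tested.

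Leukocyte markers went the other way in the colon, with 4 of 6 lower and a sum of 114 and 112 CPM in WTIEC against 14.8 and 30.6 CPM in DDX5ΔIEC. Cd74 made up most of the WTIEC sums, at 78.5 and 84.8 CPM against 6.73 and 14.7 CPM in DDX5ΔIEC. Ptprc was at 22.2 and 19.9 CPM against 5.41 and 10.9 CPM. Goblet markers had 2 of 4 lower, Clca1 at -1.57 ± 0.182 and Fcgbp at -0.61 ± 0.118, and sums of 43062 and 48304.5 CPM against 24461 and 38337 CPM. The list did not fall as a whole, as 1 of 4 fold changes was positive. Muc2, not called, was at 10679.5 and 13805 CPM in WTIEC against 8832 and 19236 CPM in DDX5ΔIEC. Surface colonocyte markers had 3 of 6 higher, Aqp8, Slc26a3 and Car4. The list summed to 5357 and 5741 CPM in WTIEC against 5463 and 6749 CPM in DDX5ΔIEC, so it did not rise as a whole. Car1, Ceacam1 and Guca2a were not called and were lowest in DDX5ΔIEC colon library 1. Aqp8, Slc26a3 and Car4 stood at 0.54, 0.36 and 0.40 without that library. Fewer leukocyte and goblet markers passed without that library, in a fit where fewer protein-coding genes passed too. Of 3 tested small intestine markers 1 was higher, Fabp6 at 1.09. The epithelial, crypt, stromal and dissociation response lists had no member past the criterion. Without DDX5ΔIEC colon library 1 some markers of these lists passed, except in the epithelial list. Whether these shifts in marker levels bear on the members was not tested, and in a bulk fraction fewer cells of a type and less RNA per cell cannot be told apart.

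**Figure D4:**
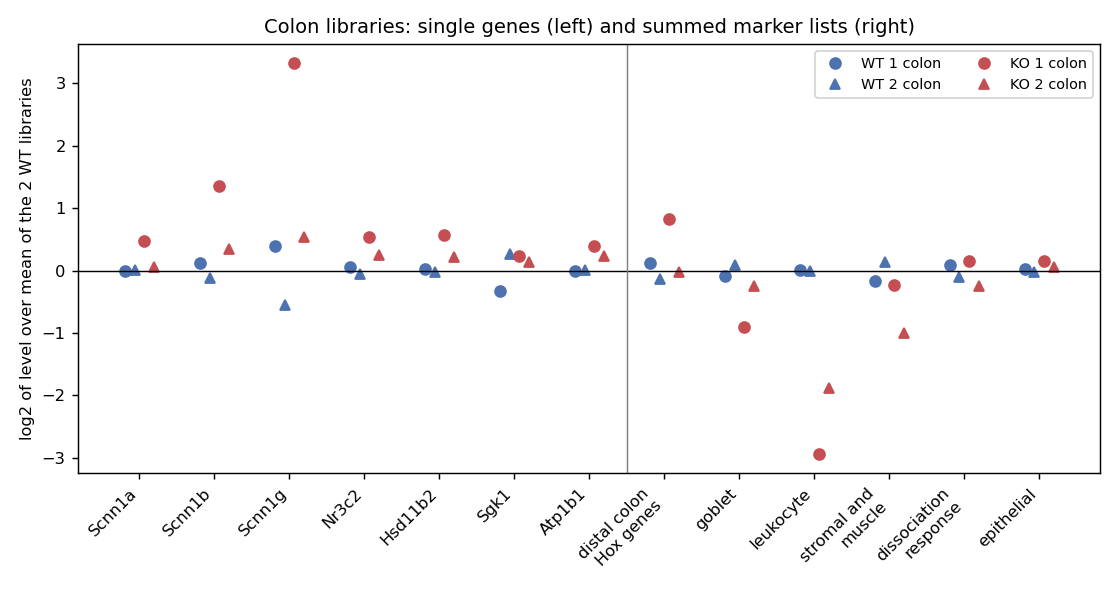
Log2 of the level in each colon library over the mean of the 2 WTIEC colon libraries, for the 7 members (left) and for summed marker lists (right), with blue for WTIEC, red for DDX5ΔIEC, circles for replicate 1 and triangles for replicate 2. DDX5ΔIEC library 1 is highest for Scnn1b, Scnn1g and the distal Hox genes and lowest for goblet and leukocyte markers.

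In the ileum 5 members had enough counts for a test of DDX5ΔIEC against WTIEC, and Hsd11b2 was the one that passed the criterion. All 5 fold changes were positive, with a median of 0.13 against -0.0046 over all 14068 genes tested. The criterion called 6.61% of 12064 protein-coding genes in either direction and 3.78% higher. At an adjusted p below 0.05 edgeR called 0.697% of genes and no member. Both knockout libraries were above both controls for Hsd11b2 and Atp1b1, and for Scnn1g at 0 to 2 counts, against 19.3% of protein-coding genes.

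Hsd11b2 had 187 and 110 counts in the WTIEC ileum and 108 and 145 in the DDX5ΔIEC ileum, which scaled to 8.63 and 7.63 CPM against 10.1 and 15.5 CPM. Library 2 of the knockout, the one with many repeat-like counts, was the highest. Hsd11b2 had a log2 fold change of 0.62 ± 0.218, unadjusted p = 0.016 and edgeR adjusted p = 0.281, over alternatives from 0.163 to 1.00. Without that library it was 0.33, edgeR adjusted p = 0.468 (unadjusted p = 0.144). The call was also lost without WTIEC ileum library 2, at 0.56 with an edgeR adjusted p of 0.829 (unadjusted p = 0.0727), and with DESeq2, at 0.63 with an adjusted p of 1.00 (unadjusted p = 0.0890). It was 0.63 with the repeat-like genes removed. Among marker lists in the ileum, leukocyte markers had 1 of 6 lower, Cd74, and 3 of 6 with a positive fold change. Their sums were 1008 and 488 CPM in WTIEC against 816 and 270 CPM in DDX5ΔIEC. Cd74 made up most of each sum, at 945 and 411 CPM against 757 and 218 CPM, so the sums describe mostly this gene. Ptprc had another order, at 46.2 and 67.8 CPM in WTIEC against 42.0 and 42.2 CPM in DDX5ΔIEC. Which cells the Cd74 transcript came from was not tested in either tissue. Goblet markers had 1 of 4 higher and surface colonocyte markers had 1 of 5 tested lower. No epithelial, small intestine, crypt, stromal or dissociation response marker passed. Distal Hox genes were too low to test there. The part of these shifts in the Hsd11b2 value was not tested.

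Sgk1 was at 54.6 and 100 CPM in the WTIEC ileum and at 155 and 63.8 CPM in the DDX5ΔIEC ileum. The 2 knockout mice lay on either side of WTIEC mouse 2. The log2 fold change of 0.45 ± 0.373 had an edgeR adjusted p of 0.701, and it ran from -0.28 without DDX5ΔIEC ileum library 1 to 1.03 without library 2.

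Atp1b1 was at 1132 and 1176 CPM in the WTIEC ileum and at 1327 and 1199 CPM in the DDX5ΔIEC ileum, a log2 fold change of 0.13 ± 0.209, edgeR adjusted p = 0.866. Scnn1a was at 23.4 and 22.5 CPM against 20.6 and 30.0 CPM, 0.11 ± 0.175, adjusted p = 0.860. Nr3c2 was at 112 and 106 CPM against 132 and 91.0 CPM, 0.01 ± 0.153, adjusted p = 0.990. For Scnn1a and Nr3c2 the knockout libraries lay on both sides of the controls.

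For Scnn1b and Scnn1g the ileum gave 2 and 2 counts of Scnn1b in WTIEC and 0 and 0 in DDX5ΔIEC, and 0 and 1 counts of Scnn1g in WTIEC and 2 and 1 in DDX5ΔIEC. A genotype difference was not detectable at this depth.

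Whether the effect of the knockout differed between tissues was asked with the interaction of tissue and genotype over all 8 libraries. No member passed an adjusted p below 0.05, and 2 of all 16178 genes did, 0.0124%. For Nr3c2 the interaction, ileum effect minus colon effect on the log2 scale, was -0.37 ± 0.256, edgeR adjusted p = 1.00 (unadjusted p = 0.190). It was 0.24 ± 0.282 for Hsd11b2, 0.33 ± 0.580 for Sgk1, -0.19 ± 0.208 for Atp1b1 and -0.14 ± 0.269 for Scnn1a. The 95% intervals all held 0, from -0.95 to 0.22 for Nr3c2 up to -1.002 to 1.65 for Sgk1. For Scnn1b and Scnn1g it could not be estimated from 0 to 2 counts in the ileum.

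The wider pathway was read from 5 lists, which were chosen with earlier results of these data known. Whether a list held more calls than the shares of all genes was not tested. Beside their counts, the criterion called 6.64% of protein-coding genes in the colon, with 2.64% higher, and 6.61% in the ileum, with 3.78% higher. Of 16 channel regulators, such as the ubiquitin ligase Nedd4l, the kinases Sgk2 and Sgk3 and the WNK pathway, none passed the criterion in the colon or the ileum (median log2 fold change -0.04 and -0.0098). Of the proteases that cleave ENaC and their inhibitors, 7 of 8 were tested and none passed in either tissue (median 0.10 and 0.12). Prss8, the channel-activating protease prostasin, was at 35.9 and 35.8 CPM in the WTIEC colon and 41.4 and 41.7 CPM in the DDX5ΔIEC colon.

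Of 11 tested genes of the receptor and steroid handling list, 1 was higher in each tissue, Fkbp5 both times. The medians were 0.13 and -0.031. Fkbp5, a co-chaperone of steroid receptors and itself a well known glucocorticoid-induced gene, was at 86.1 and 89.9 CPM in the WTIEC colon against 130 and 143 CPM in the DDX5ΔIEC colon. In the ileum it was at 26.0 and 42.1 CPM against 127 and 112 CPM, and in both tissues the groups were well apart.

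The log2 fold change of Fkbp5 was 0.63 ± 0.080 in the colon, edgeR adjusted p = 0.173, and 1.85 ± 0.196 in the ileum, adjusted p = 0.0033. It kept the criterion in both tissues without either knockout library, at 0.70 and 0.57 in the colon and 1.71 and 1.93 in the ileum, and lost it in the colon without WTIEC colon library 1, at 0.60 with an unadjusted edgeR p of 0.0574. The ileum value had an adjusted p of 0.305 without the replicate block. The difference between tissues, 1.1801 ± 0.281, had an edgeR adjusted p of 0.935.

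Of 9 mineralocorticoid and glucocorticoid target genes, 2 were higher in the colon, Fkbp5 and Zbtb16, and 1 of 8 tested was higher in the ileum, Fkbp5. The medians were 0.20 and 0.18. Zbtb16, a transcription factor induced by corticoids, was at 2.15 and 2.38 CPM in the WTIEC colon against 8.996 and 3.78 CPM in the DDX5ΔIEC colon, a log2 fold change of 1.36 ± 0.386, unadjusted p = 0.017 and edgeR adjusted p = 0.333. Tsc22d3, another such target, was at 52.3 and 63.5 CPM in WTIEC colon and 47.2 and 61.8 CPM in DDX5ΔIEC colon. Zbtb16 lost the call without DDX5ΔIEC colon library 1, at 0.73, and without WTIEC colon library 1, at 1.41. Without DDX5ΔIEC colon library 1 Fkbp5 was the only gene of the list called higher, and some others were called lower.

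The list of the sodium pump and ion transport partners, the longest with 26 genes, held the most calls. In the colon 6 of 22 tested genes were higher and 1 was lower, with a median of 0.23 over the list, and in the ileum none of 21 was higher and 2 were lower, with a median of -0.038. Atp12a, the colonic H,K-ATPase that takes up potassium, was at 175 and 209 CPM in the WTIEC colon against 598 and 343 CPM in the DDX5ΔIEC colon. Fxyd4, a regulator of the sodium pump also called CHIF, was at 14.5 and 19.3 CPM against 61.4 and 23.1 CPM. Both were highest in DDX5ΔIEC colon library 1, as Scnn1b and Scnn1g were.

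The log2 fold change was 1.23 ± 0.261 for Atp12a (unadjusted p = 0.0056, edgeR adjusted p = 0.272) and 1.16 ± 0.439 for Fxyd4 (unadjusted p = 0.047, adjusted p = 0.412). With DDX5ΔIEC colon library 1 left out, Atp12a stood at 0.83 (edgeR adjusted p = 0.391, unadjusted p = 0.0013) and Fxyd4 at 0.45 (adjusted p = 0.937, unadjusted p = 0.139). Atp12a kept the criterion under all 14 alternatives, while Fxyd4 lost it also without WTIEC colon library 1 and with DESeq2, at 1.12 and 1.16. Slc9a3, the sodium-proton exchanger NHE3, was at 202 and 170 CPM in the WTIEC colon against 332 and 331 CPM in the DDX5ΔIEC colon, nearly the same in both knockout mice. Its log2 fold change was 0.83 ± 0.099, edgeR adjusted p = 0.166 (unadjusted p = 4.4e-04). The call was lost when any 1 of the 4 colon libraries was left out, at 0.71 to 0.96. Those fits held all groups and no block. With all 8 libraries that model gave Slc9a3 0.83 with an unadjusted edgeR p of 0.043, so the model itself weakened the call.

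Aqp8, a water channel, Slc26a3, the chloride-bicarbonate exchanger, and Car4, a carbonic anhydrase, were higher too, by 0.79 ± 0.093, 0.70 ± 0.151 and 0.63 ± 0.131 on the log2 scale, and all 3 are also on the list of surface colonocyte markers. Kcnq1, a potassium channel, was lower, by -0.54 ± 0.119. With DDX5ΔIEC colon library 1 left out, Atp12a and Aqp8 kept the criterion and the other called genes of the list did not. In that fit fewer protein-coding genes passed too. Aqp8 at 0.65 and Slc26a3 at 0.67 also lost the call without WTIEC colon library 2. In the ileum Aqp4, a water channel, was lower by -0.86 ± 0.160 (edgeR adjusted p = 0.0426, and 0.305 without the block) and Car1, a carbonic anhydrase, by -2.16 ± 0.444 (adjusted p = 0.0617) at 0.321 to 4.15 CPM. The call of Car1 was lost without WTIEC ileum library 1, at -1.24, and without DDX5ΔIEC ileum library 2, at -1.63.

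**Figure D5:**
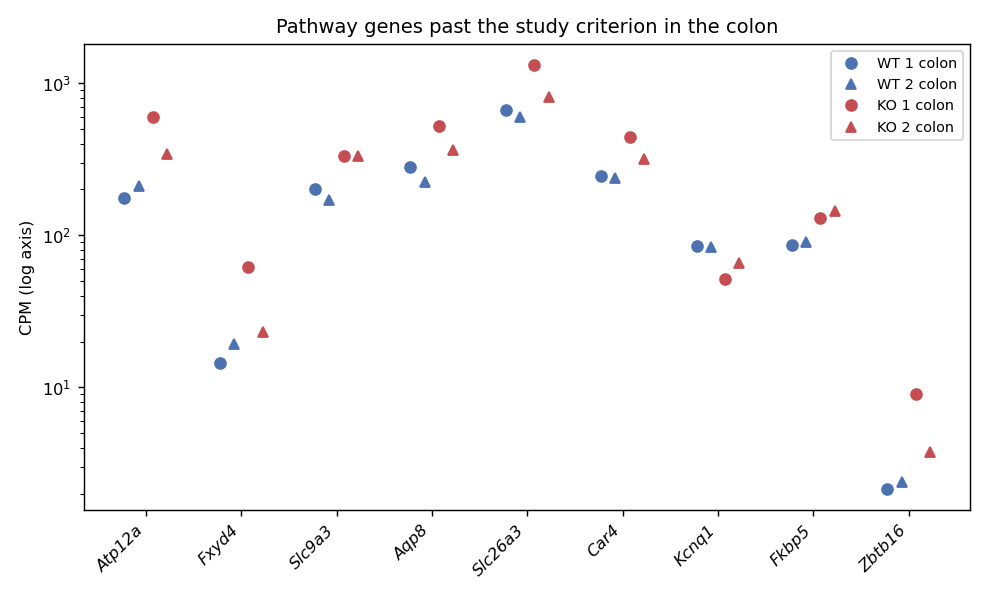
CPM (log axis) in the 4 colon libraries of the 9 genes of the pathway lists that passed the criterion in the colon, with blue for WTIEC, red for DDX5ΔIEC, circles for replicate 1 and triangles for replicate 2. DDX5ΔIEC library 1 is the higher of the 2 knockout libraries for Atp12a at 598 and Fxyd4 at 61.4 CPM, while Slc9a3 at 332 and 331 CPM and Fkbp5 at 130 and 143 CPM are alike in both.

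Genes with the pattern most like the mean log2 CPM of Scnn1b and Scnn1g were sought among 13095 protein-coding genes over the 8 libraries. The closest were Cma1 (Pearson's r = 0.998), Aldh2 (0.995), Slc26a3 (0.995), Klk15 (0.994) and Prdx6 (0.994). Cma1, at 0.836 to 4.36 CPM in the colon, and Klk15, at 0.880 to 2.37 CPM, were near the floor. Both were at 0 in every ileum library and passed the filter only through the colon. The 8 points share their libraries and fall into a colon and an ileum cluster, so these values describe mostly the gap between tissues. Slc26a3, for one, was at 669, 596, 1310 and 815 CPM in the WTIEC and DDX5ΔIEC colons and at 113 to 147 CPM in the ileum. Prdx6, a peroxidase, was at 1358, 1272, 2933 and 1585 CPM in the same colons and at 138 to 174 CPM in the ileum. Among the members Nr3c2 had r = 0.978, Hsd11b2 0.965, Scnn1a 0.963, Sgk1 0.688 and Atp1b1 -0.760, the last with the opposite order of tissues.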

How the data were processed

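RNAseq of EDTA-released IECs was read from 1 deposited table per tissue. The authors aligned reads to mm10 with STAR 2.6.1a and counted reads per gene with featureCounts, and the raw count columns they deposited were used for everything here. The annotation was GENCODE vM19. Beside the counts, the deposited files carry a normalized signal (counts over a size factor per library), and the log2 fold changes, standard errors, Wald score and p-values of the authors' own DESeq2 1.18.1 comparison. Exon length per gene came from the same tables. None of the comparison columns entered a result, and the normalized signal served to match animals. Depth was 11571061 to 22984283 counts, which limits a CPM below about 1 to a few counts.

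Genes were filtered with filterByExpr (minimum count of 10), scaled with TMM and tested with edgeR 4.0.16 (R 4.3.3), with Benjamini-Hochberg adjustment over all genes tested. Genotypes were compared within a tissue with the replicate number as a block, as the study's design held a harvest covariate. Tissues and the interaction were fitted over 8 libraries without a block. A gene listed in only 1 table was set to 0 in the other. Symbols turned into dates were restored (25 in the colon table, 26 in the ileum table). Whether the replicate numbers mark the littermate pairs is not stated. Over 16178 genes, same-numbered libraries of the genotypes correlated at -0.00041 in the colon and 0.125 in the ileum after group means were removed, and the tissues of a mouse at 0.14 in both genotypes. Values that the study lists per animal for 37 genes equalled the deposited normalized signal of 1 library each (relative tolerance 1e-04), which gave 4 mice, with the same number for the same animal in both tissues.

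Standard errors are the log2 fold change over the square root of F. Positions come from GENCODE on GRCm38, with the same identifiers as the tables. The steps were tested on simulated data. The members, the 5 pathway lists, the 9 marker lists and the tests were chosen with earlier results of these data known. Named genes were the members, Ddx5, list genes past the criterion in either tissue, and the 5 genes most like Scnn1b and Scnn1g, while Prss8, Tsc22d3, single marker genes and the tissue differences of list genes in the closing section were named after their values were seen. Alternatives were no block, RLE, no filter, DESeq2 1.42.0, all 8 libraries in 1 fit, removal of 3 repeat-like genes (Gm10800, Gm10801, Gm21738), the mouse as a block, and each library left out in turn. Libraries were left out of the fit of all groups, which has no block. Genotype values without 1 library therefore differ from the main fit in the model too, and their counterpart is the fit of all 8 libraries. List calls without single knockout libraries were added after seeing the data. Python 3.11.15 and scipy 1.17.1 gave the counting intervals, which cover counting error only.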

Additional observations from a re-analysis of the deposited data

How the results depend on the processing

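Over the members, 373 values kept direction and call under an alternative, 17 lost the call, 14 gained it and 11 reversed. The cause was not tested. Members past the criterion in the colon were 2, and 0 to 4 with 1 library left out. In the ileum they were 1, 0 with DESeq2, and 0 to 1 with 1 library left out. Protein-coding genes past it numbered 834 in the colon, 463 with DESeq2 and 524 to 1531 with 1 library left out (1531 without DDX5ΔIEC colon library 2), and 797 in the ileum, 362 with DESeq2 and 611 without the replicate block, with 616 to 1298 when 1 library was left out (1298 without DDX5ΔIEC ileum library 2).

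Genes at an adjusted p below 0.05 in the colon were 0, with 5 for no replicate block, 10 for all 8 libraries in 1 fit, 117 for DESeq2 and 0 to 193 with 1 library left out. In the ileum they were 98, with 1 for no replicate block, 423 for no filter, 39 for DESeq2, 20 without the repeat-like genes, 7 for all 8 libraries and 0 to 1 with 1 library left out. WTIEC tissue calls, 5528, were 3153 to 6231 with 1 library left out. The interaction had 2 genes, with 210 for no filter, 1 for the mouse as a replicate block, 17 for DESeq2 and 0 to 30 with 1 library left out. With 1 library left out, fold changes that reversed ran from -0.091 to 0.51 for Sgk1 in the colon, and in the ileum from -0.14 to 0.37 for Scnn1a, from -0.27 to 0.29 for Nr3c2 (-0.026 without the filter) and from -0.28 to 1.03 for Sgk1. Interactions that reversed ran from -0.40 to 0.10 for Scnn1a, from -0.067 to 0.51 for Hsd11b2 and from -0.46 to 0.86 for Sgk1. Without the filter the median of all genes in the WTIEC tissue comparison moved by 0.19. Apart from the counts above, no replicate block changed no call of a member, and the mouse block changed those of Sgk1 in WTIEC and Atp1b1 in DDX5ΔIEC mice. With 2 mice per group and 28 to 324 counts of Scnn1g per colon library, differences below about the spread between mice could not be resolved.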

Other observations

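List genes also differed between the tissues in WTIEC mice, by edgeR adjusted p. In this comparison 17.4% of all genes were called higher and 16.8% lower in the ileum, so calls within any list are common. Whether a list held more calls than these shares was not tested. Of 11 receptor and steroid handling genes, 4 were higher in the ileum and 1 was lower. Nr3c1, the glucocorticoid receptor, was at 128 and 124 CPM in the WTIEC colon and at 254 and 251 CPM in the WTIEC ileum, a log2 difference of 1.01 ± 0.167 (adjusted p = 0.0021), the opposite direction to Nr3c2. In DDX5ΔIEC mice it was 0.91 ± 0.167, adjusted p = 0.0037. The coregulators Ncoa1 at 0.41, Ncoa2 at 0.59 and Ncor1 at 0.83 were higher too. Hsd11b1, the enzyme that regenerates active glucocorticoid, was at 0.264 CPM or less in every library. Fkbp5 was lower by -1.38 ± 0.202, adjusted p = 0.0012, and in DDX5ΔIEC mice the value was -0.20 ± 0.196, adjusted p = 0.474, with an adjusted p of 0.935 for the interaction.

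Of 9 corticoid target genes, 1 was higher in the WTIEC ileum, Usp2, a deubiquitinase, by 1.47 ± 0.286 on the log2 scale (edgeR adjusted p = 0.0048). Fkbp5, Zbtb16 and Ndrg2, 3 genes, were lower. Zbtb16 was near the floor, at 2.15 and 2.38 CPM in the WTIEC colon and 0.185 and 0 CPM in the WTIEC ileum. Ndrg2, an aldosterone-induced gene, was at 98.1 and 94.1 CPM in the WTIEC colon against 25.7 and 27.7 CPM in the WTIEC ileum, -1.85 ± 0.144 (adjusted p = 4.2e-05). Of 16 channel regulators 6 were higher, Sgk3 at 1.21, Pdpk1 at 0.45, Usp2 at 1.47, Wnk1 at 0.58, Stx1a at 1.26 and Ywhae at 0.42, and 3 were lower, Nedd4 at -0.50, Wnk4 at -1.95 and Stk39, which encodes SPAK, at -1.19. Of 7 tested channel-activating proteases and inhibitors, 2 were higher, the protease Furin at 0.33 and the inhibitor Spint1 at 0.71, and 2 were lower, the proteases Prss8 at -0.94 and Tmprss2 at -1.44.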
